A study of Mus musculus with 6 samples.

Results

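The goblet cell secretory programme was followed through 10 genes in mouse intestinal adenoma tumoroids that lack or carry IKKa, the kinase encoded by Chuk. The genes were Atoh1, Spdef, Creb3l1, Creb3l4, Agr2, Fcgbp, Clca1, Spink4, Zg16 and Bcas1, chosen by name from the GENCODE annotation of GRCm38. They are 10 of the 49585 gene identifiers in the deposited count tables, and 9 of them are among the 13759 genes with enough counts to be tested. The knock-out (KO) tumoroids were IKKa FL/FL and the wild-type (WT) tumoroids IKKa +/+, and both were APC min/+ and carried Villin-Cre on a C57BL/6 background. Both genotypes therefore had 1 copy of the Min allele of Apc, which gives intestinal adenomas, and a Cre under the Villin promoter, whose activity is in epithelial cells of the intestine. Tumoroids are adenoma cells grown as epithelial bodies in Matrigel, here in a medium with R-spondin, Noggin, EGF, basic FGF and a ROCK inhibitor. Each genotype had 3 RNA-seq libraries, labelled as biological replicates, and the labels do not say whether they came from separate mice. P-values therefore measure the spread between these libraries.

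Goblet cells are the mucus-secreting cells of the gut epithelium. Atoh1, a basic helix-loop-helix transcription factor, commits mouse intestinal progenitors to the secretory lineages and is held down by Notch signalling through Hes1, while Spdef, an Ets-family factor, acts after it in the maturation of goblet and Paneth cells. Creb3l1 and Creb3l4 encode membrane-bound factors that are cut out of the secretory pathway's membranes and then enter the nucleus. Agr2 encodes a disulphide isomerase of the endoplasmic reticulum (ER) that mice need to make the gel-forming mucin Muc2. Fcgbp, Clca1 and Zg16 encode proteins of the mucus itself, and Spink4 a small secreted inhibitor of serine proteases.

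The sequences before the starts of the genes that fell are shown because these genes fell together and include both transcription factors and secreted products. RefSeq windows were at hand for 5 of the 10 genes. Each line gives the 250 bases before the RefSeq start on GRCm38.p6, 5′ to 3′ on the gene's own strand. Capitals mark matches, on either strand, to 4 short motifs: CAGCTG, an E-box core bound by helix-loop-helix factors, CACNAG, the N-box bound by Hes factors, ACGTG, the core of CREB3-family sites, and CCGGAT, an Ets-type site.
Atoh1: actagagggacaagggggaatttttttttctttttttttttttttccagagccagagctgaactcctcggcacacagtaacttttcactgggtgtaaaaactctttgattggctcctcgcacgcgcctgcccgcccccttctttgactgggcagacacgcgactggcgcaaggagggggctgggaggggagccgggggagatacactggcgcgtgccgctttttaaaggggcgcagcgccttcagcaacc
Spdef: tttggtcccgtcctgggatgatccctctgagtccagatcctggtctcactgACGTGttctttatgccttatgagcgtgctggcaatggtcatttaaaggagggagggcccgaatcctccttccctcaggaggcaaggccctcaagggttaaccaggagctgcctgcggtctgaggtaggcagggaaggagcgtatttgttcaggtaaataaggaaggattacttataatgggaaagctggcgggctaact
Creb3l4: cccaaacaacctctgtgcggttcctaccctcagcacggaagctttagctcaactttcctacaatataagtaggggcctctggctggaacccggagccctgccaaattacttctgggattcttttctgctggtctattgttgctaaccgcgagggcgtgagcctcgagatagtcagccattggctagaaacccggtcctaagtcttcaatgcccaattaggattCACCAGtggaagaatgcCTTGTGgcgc
Agr2: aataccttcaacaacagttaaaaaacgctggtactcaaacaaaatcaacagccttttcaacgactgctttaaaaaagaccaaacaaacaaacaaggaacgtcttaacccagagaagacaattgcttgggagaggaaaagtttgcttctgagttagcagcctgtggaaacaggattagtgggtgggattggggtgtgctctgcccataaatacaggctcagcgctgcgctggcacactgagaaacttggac
Fcgbp: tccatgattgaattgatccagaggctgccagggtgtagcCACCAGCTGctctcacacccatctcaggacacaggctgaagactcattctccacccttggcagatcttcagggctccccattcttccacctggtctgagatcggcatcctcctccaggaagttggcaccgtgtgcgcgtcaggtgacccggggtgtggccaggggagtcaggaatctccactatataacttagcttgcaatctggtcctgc
The windows lie at chr6:64728875-64729124 (plus strand) for Atoh1, chr17:27728952-27729201 (minus) for Spdef, chr3:90243513-90243762 (minus) for Creb3l4, chr12:35992675-35992924 (plus) for Agr2 and chr7:28070986-28071235 (plus) for Fcgbp. The last 18 bases of the Agr2 window and the last 4 of the Spdef window lie within exons of GENCODE's gene models. CAGCTG was found in 1 of the 5 windows, that of Fcgbp, where it overlaps a CACNAG match, and in 13.0% of 32851 RefSeq windows of the same length. CACNAG was found in 2 of 5, Fcgbp with 1 match and Creb3l4 with 2, against 36.7% of all windows. ACGTG was found in 1 of 5, Spdef, against 16.6%, and CCGGAT in none of the 5, against 4.94%. These matches describe letters in the windows and no binding was measured.

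Levels are given as CPM, counts scaled to library size with TMM factors, where 1 CPM stood for 20.6 to 31.7 counts in a library. Library totals were 26785922 to 31875723 counts in KO and 20749747 to 29752507 in WT. Chuk averaged 29.4 ± 5.28 CPM in KO and 101 ± 5.21 CPM in WT (SD, n = 3 each), 3.42-fold lower in KO (adjusted p = 8.6e-08). The labels do not say which exons the FL allele removes, so the counts left in KO do not measure intact transcript. All 8 epithelial markers were detected in both genotypes. Of these, 4 fell, among them Epcam 2.22-fold (adjusted p = 3.2e-08), 3 keratins rose and 1 did not pass, with summed levels of 10617 to 12417 CPM in KO and 8087 to 8768 CPM in WT. Of 9 intestinal markers, 7 fell and none rose, with summed levels of 2725 to 2986 CPM in KO and 4581 to 4834 CPM in WT, and Cdx1 had no count in KO. KO replicate 2 stood apart, with a chi-square per degree of freedom of 36.4 and 37.0 against the other KO libraries, which had 5.64 between them. Xist had 6 counts over the KO libraries and 95406 over the WT libraries, while the Y-linked Ddx3y had 4502 over KO and 0 over WT, so genotype and sex cannot be told apart. The mitochondrial share of counts was 2.15 to 3.46% in KO and 6.18 to 7.58% in WT. On chromosome 5 the median log2 fold change was 0.40, against -0.03 on the other autosomes. None of the 10 genes lies on chromosome X, Y or 5.

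The goblet genes were low in KO tumoroids, with Bcas1 as the exception. Of the 9 tested genes, 8 fell and 1 rose in KO, at an adjusted p under 0.05 in edgeR's quasi-likelihood test over all genes. Over all genes tested, 57.4% passed that test, 27.0% lower and 30.4% higher in KO, so passing it was common. All 9 had KO and WT libraries that did not overlap, as did 63.1% of all genes tested. The falls were at least 2-fold in 8 genes, against 9.83% of all genes tested, and at least 4-fold in 6, against 5.68%. The same 6 genes, Atoh1, Spdef, Agr2, Fcgbp, Clca1 and Spink4, fell at least 10-fold, against 3.56% of all genes. The median fitted log2 fold change of the 9 genes was -5.53, and that of all genes tested was 0.00. Spdef, Spink4 and Atoh1 reached the filter's level of 0.354 CPM through the WT libraries alone. With KO under that level, these 3 could only pass as falls. The counts above therefore describe the set without supporting a statement about it. Without KO replicate 2, again 8 genes fell and 1 rose.

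**Figure D1:**
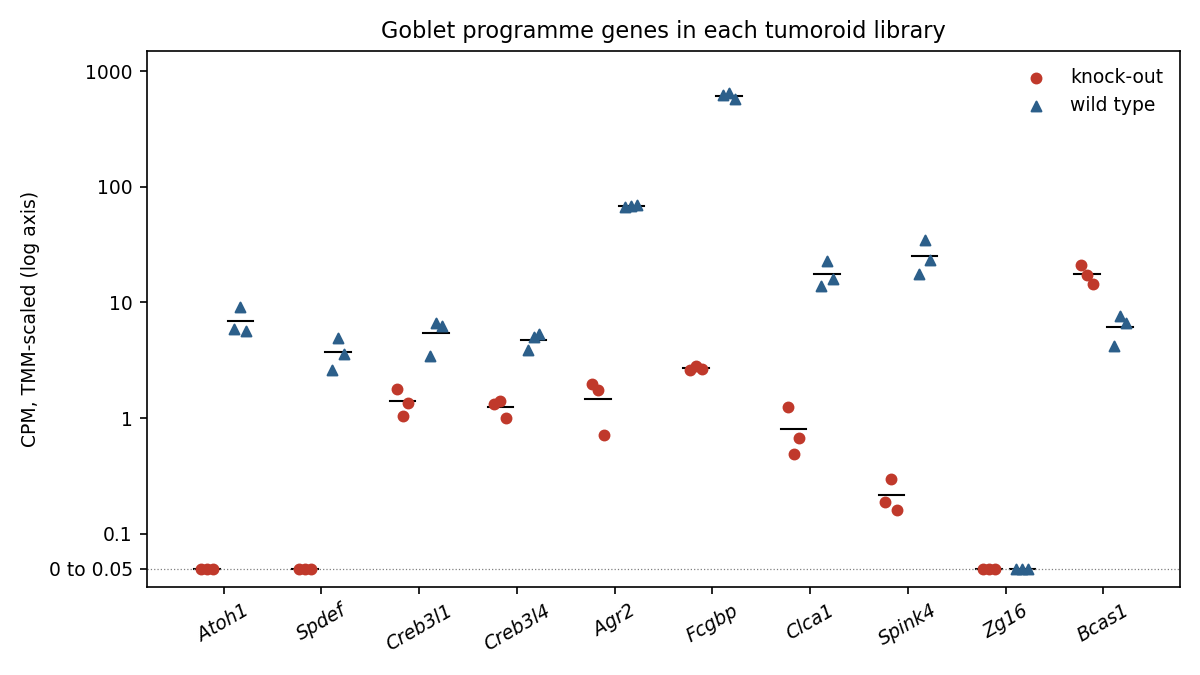
Level of each of the 10 genes in each library, in CPM on a log axis, with KO libraries as circles on the left and WT libraries as triangles on the right of each gene and black bars at the means. Values from 0 to 0.05 CPM are drawn on the dotted line. The KO points lie below the WT points for 8 genes and above them for Bcas1, and Zg16 lies on the dotted line in all 6 libraries.

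**Figure D2:**
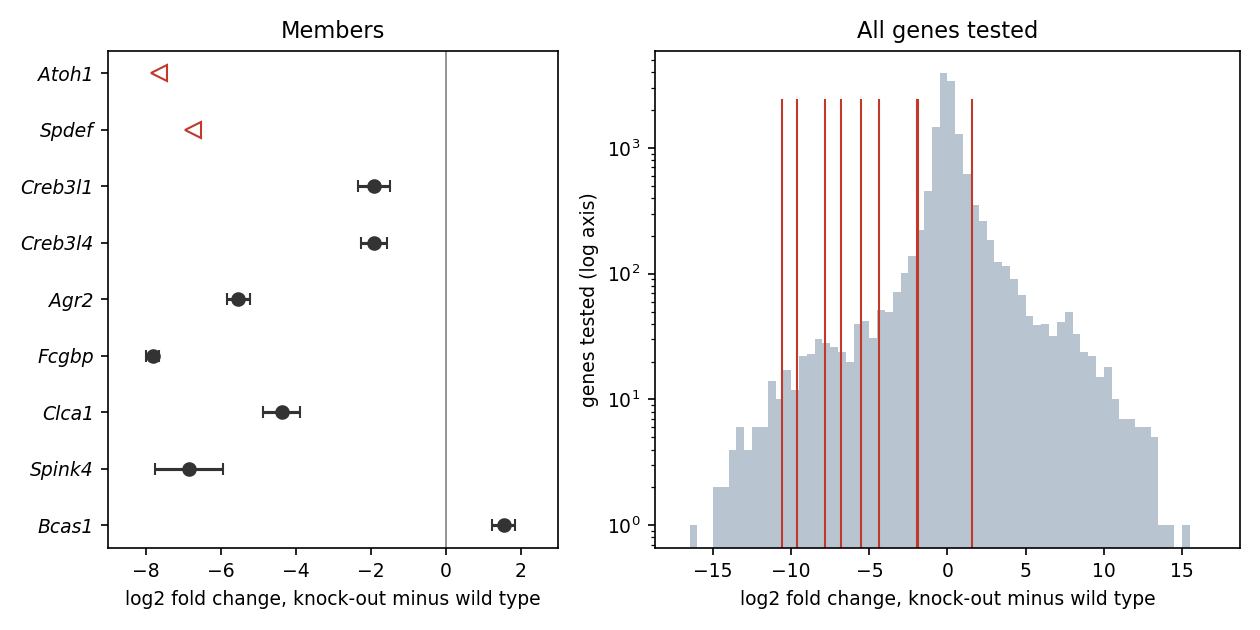
Left, fitted log2 fold change (KO minus WT) of the 9 tested genes with its standard error, where open triangles give for Atoh1 and Spdef the bound set by 3 counts over the KO libraries. Right, the distribution over all 13759 genes on a log axis with red lines at the fitted values of the same 9 genes, of which 8 lie left of 0 and 1 lies right of it.

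Atoh1 and Spdef, the fate factors among the 10 genes, had no count in KO. Atoh1 (ENSMUSG00000073043, chr6:64729125-64731245, plus strand), whose window above holds none of the 4 motifs, had 0 counts in each KO library, against 5.90, 9.21 and 5.69 CPM in the WT libraries. Its WT counts summed to 519, which makes it at least 199.7-fold lower in KO (adjusted p = 3.4e-06), with the KO level set at 3 counts over the pooled libraries, or 0.0336 CPM. Atoh1 was thus detected in all 3 WT libraries and in none of the KO libraries.

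Spdef (ENSMUSG00000024215, chr17:27714352-27728955, minus strand) likewise had 0 counts in each KO library, against 2.61, 4.89 and 3.60 CPM in the WT libraries. With 276 counts over the WT libraries it was at least 106-fold lower in KO (adjusted p = 2.2e-05). The highest WT library was 1.62-fold above the lowest for Atoh1 and 1.87-fold for Spdef, and WT replicate 2 was the highest for both. Bounds and intervals on counts cover counting error only. In these bulk samples fewer cells of a type and less RNA per cell cannot be told apart.

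The membrane-bound factors of the CREB3 family fell less and remained measurable in every KO library. Creb3l1 (ENSMUSG00000027230, chr2:91982328-92024502, minus strand), known in mice for its part in the late maturation of goblet cells of the large intestine, had 1.80, 1.05 and 1.36 CPM in the KO libraries, against 3.42, 6.69 and 6.28 CPM in the WT libraries. Its log2 fold change was -1.91 ± 0.42 (SE, n = 3 each), or 3.75-fold lower in KO (adjusted p = 0.00042). The lowest WT library, replicate 1, was still above every KO library.

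Creb3l4 (ENSMUSG00000027938, chr3:90237500-90243512, minus strand), a relative of Creb3l1, had 1.33, 1.42 and 1.00 CPM in the KO libraries, against 3.89, 5.04 and 5.39 CPM in the WT libraries. It was 3.79-fold lower in KO, with a log2 fold change of -1.92 ± 0.35 (SE, n = 3 each; adjusted p = 9.4e-05). Both genes were low in either genotype, at 5.46 ± 1.78 CPM for Creb3l1 and 4.77 ± 0.786 CPM for Creb3l4 in WT (SD, n = 3).

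Agr2, the disulphide isomerase, was the steadiest of the 9 tested genes across the WT libraries and, after Clca1, the most variable across the KO libraries. Agr2 (ENSMUSG00000020581, chr12:35992907-36004087, plus strand) had 1.96, 1.76 and 0.710 CPM in the KO libraries, against 67.1, 68.6 and 69.0 CPM in the WT libraries. The coefficient of variation was 45.4% in KO, where the counts were 62, 47 and 22, and 1.49% in WT. The gene was 46.4-fold lower in KO, with a log2 fold change of -5.53 ± 0.30 (SE, n = 3 each; adjusted p = 2.4e-10).

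Of the secreted mucus proteins, Fcgbp, Clca1 and Spink4 fell and Zg16 could not be tested. Fcgbp (ENSMUSG00000047730, chr7:28071236-28120862, plus strand) encodes a large mucus protein with repeated von Willebrand D domains. It had 2.62, 2.85 and 2.68 CPM in the KO libraries, against 616, 652 and 569 CPM in the WT libraries. The spread was small in both genotypes, with a coefficient of variation of 4.29% in KO and 6.76% in WT. Fcgbp was 226-fold lower in KO, with a log2 fold change of -7.82 ± 0.17 (SE, n = 3 each; adjusted p = 1.5e-13), and it kept 76 to 83 counts in each KO library.

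Clca1 (ENSMUSG00000028255, chr3:145003817-145032776, minus strand), a secreted metalloprotease of goblet cell mucus, had 1.26, 0.487 and 0.678 CPM in the KO libraries, against 13.9, 22.9 and 15.8 CPM in the WT libraries. It was 20.7-fold lower in KO, with a log2 fold change of -4.37 ± 0.49 (SE, n = 3 each; adjusted p = 2.1e-07). KO replicate 1 was 2.60-fold above KO replicate 2, yet all KO libraries were far below the lowest WT library.

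Spink4 (ENSMUSG00000028415, chr4:40920052-40931395, plus strand), a Kazal-type protease inhibitor secreted by goblet cells, had 0.190, 0.300 and 0.161 CPM in the KO libraries, against 17.7, 34.7 and 23.5 CPM in the WT libraries. It was 115-fold lower in KO, with a log2 fold change of -6.84 ± 0.91 (SE, n = 3 each; adjusted p = 3e-08). The KO value rests on 19 counts over 3 libraries, and the WT value on 1876.

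Zg16 (ENSMUSG00000049350, chr7:127050156-127087328, minus strand), a lectin-like mucus protein that binds Gram-positive bacteria, had 0 counts in KO and 1 count in WT, in WT replicate 3. It was not tested, and no difference was detectable at this depth. An abundant product of goblet cells in the gut was thus not measured above the floor in WT tumoroids either. Muc2, the mucin that defines goblet cells, was also low in WT, at 4.31 ± 2.13 CPM, and stood at 0.116 ± 0.149 CPM in KO (SD, n = 3 each; 32.2-fold lower in KO, adjusted p = 2.4e-05). Set against the goblet cell label, the WT tumoroids thus had Fcgbp, Agr2 and Spink4 at high levels and Muc2 and Zg16 at low ones.

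Bcas1 was the exception among the 10 genes. Bcas1 (ENSMUSG00000013523, chr2:170346991-170427845, minus strand), best known as a marker of newly myelinating oligodendrocytes, had 20.9, 17.2 and 14.5 CPM in the KO libraries, against 4.19, 7.66 and 6.61 CPM in the WT libraries. It was 2.92-fold higher in KO, with a log2 fold change of 1.55 ± 0.31 (SE, n = 3 each; adjusted p = 6.7e-05), where 15.2% of all genes tested rose at least 2-fold. Its lowest KO library was above its highest WT library. The antisense genes Bcas1os1 and Bcas1os2 overlap its exons by 440 and 34 bases, and both had 0 counts in all libraries.

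The sum of the 10 genes was 30.1, 25.0 and 21.1 CPM in the KO libraries, against 735, 812 and 705 CPM in the WT libraries. Fcgbp made up 8.71 to 12.7% of the 10 genes' counts in KO and 80.3 to 83.9% in WT. Bcas1 made up 68.6 to 69.6% of them in KO and 0.570 to 0.943% in WT. These are shares of counts, which a long gene such as Fcgbp (10.5 kb of exons) collects more of than a short one such as Spink4 (477 bases).

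Per kilobase of exon, the scale on which genes can be compared with each other, 3 secreted or ER-resident products led in WT. Fcgbp stood at 0.259 ± 0.0111 CPM per kb in KO and 58.4 ± 3.95 CPM per kb in WT (SD, n = 3 each). Spink4 stood at 0.455 ± 0.153 CPM per kb in KO and 53.0 ± 18.2 CPM per kb in WT, and Agr2 at 1.14 ± 0.520 CPM per kb in KO and 52.9 ± 0.786 CPM per kb in WT. In WT, Fcgbp and Spink4 did not differ beyond their spread, nor did Spink4 and Agr2. They were above 93.2 to 94.1% of all genes tested in WT and above 9.24 to 22.4% of them in KO.

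The remaining genes were at least 10-fold lower per kilobase in WT than Agr2. Clca1 stood at 0.214 ± 0.107 CPM per kb in KO and 4.64 ± 1.26 CPM per kb in WT, followed in WT by Atoh1 with 3.27 ± 0.931, Creb3l4 with 2.84 ± 0.468, Creb3l1 with 2.10 ± 0.684 and Spdef with 1.61 ± 0.496 CPM per kb. Neighbours in that WT order did not differ beyond their SDs. Bcas1 was the most abundant of the 10 per kilobase in KO, at 4.64 ± 0.858 CPM per kb, and stood at 1.63 ± 0.471 CPM per kb in WT. After it in KO came Agr2, Creb3l4 with 0.745 ± 0.132, Creb3l1 with 0.539 ± 0.145, Spink4, Fcgbp and Clca1, with 0 counts for Atoh1, Spdef and Zg16. Agr2 and Creb3l4, Creb3l4 and Creb3l1, Creb3l1 and Spink4, and Fcgbp and Clca1 did not differ beyond their SDs in KO.

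**Figure D3:**
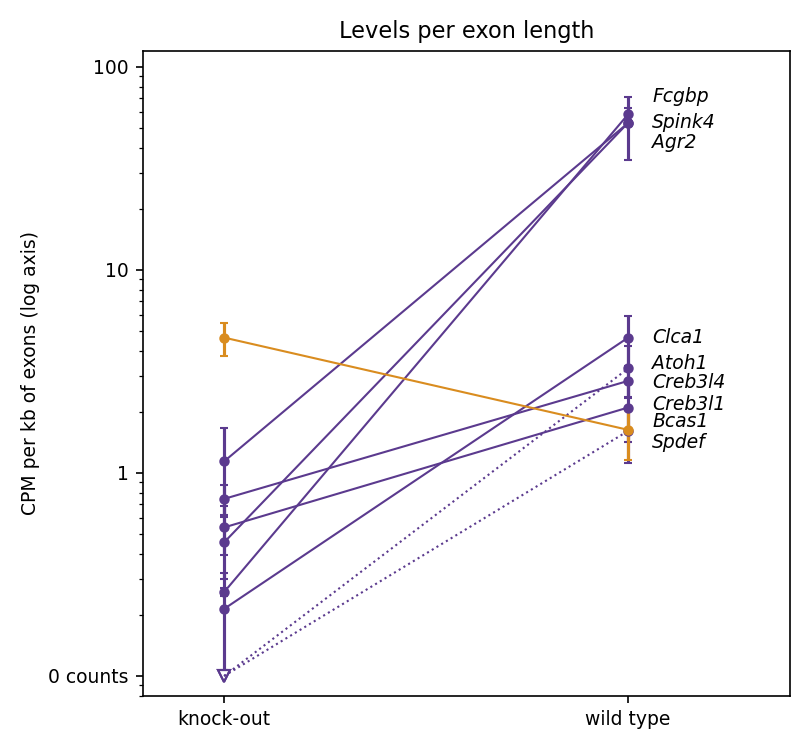
Mean level per kilobase of exon (CPM per kb, log axis) with its SD over 3 libraries, KO on the left and WT on the right. Open triangles mark Spdef and Atoh1, which had 0 counts in KO, and Zg16 is not drawn. The line of Bcas1 falls toward WT and the other 8 rise toward WT, with Fcgbp, Spink4 and Agr2 between 52.9 and 58.4 CPM per kb in WT.

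Within WT the same libraries tended to stand at the ends, since WT replicate 2 was the highest for 7 of 9 tested genes and WT replicate 1 the lowest for 7 of 9. In KO, replicate 1 was the highest for 4 of the 7 genes with counts and replicate 3 the lowest for 4. The coefficient of variation over the WT libraries ran from 1.49% for Agr2 to 34.3% for Spink4, with 28.5% for Atoh1 and 30.9% for Spdef. Leaving out any library left all 9 genes past the threshold in the same direction. Of these, Atoh1, Spdef and Spink4 reached the filter's level through WT alone and could only pass as falls.

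The nearest relatives of the 10 genes show whether a fall was shared within a family. Of 13 tested relatives, 9 fell, 2 rose and 2 did not pass, with a median log2 fold change of -3.70. Of these, 6 of the falls were genes that reached the filter's level through WT alone, and of the 6 relatives that reached it in all libraries 3 fell and 1 rose. Agr3, whose gene lies 43.2 kb from Agr2, had 0 counts in KO and 6.74 ± 1.96 CPM in WT (SD, n = 3), at least 201-fold lower in KO (adjusted p = 5.1e-06). Txndc12, a disulphide oxidoreductase of the same family elsewhere in the genome, stood at 49.7 ± 6.67 CPM in KO and 49.1 ± 3.11 CPM in WT (SD, n = 3 each; adjusted p = 0.93).

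Clca1 lies in a cluster of 8 Clca genes at chr3:144729677-145099443, and the 4 tested relatives there all fell. Clca3b, the most abundant, averaged 7.99 ± 0.155 CPM in KO and 580.3 ± 7.36 CPM in WT (SD, n = 3 each), 72.6-fold lower in KO (adjusted p = 1.5e-13). Clca3a1 was 48.6-fold and Clca3a2 45.4-fold lower in KO. Clca4b had 3 counts in KO and 127 in WT, 48.9-fold lower in KO after scaling (95% interval for counts 16.3 to 240). Odf2l, the nearest tested gene beyond the cluster, stood at 35.0 CPM in KO and 33.6 CPM in WT (adjusted p = 0.67). The Clca genes are similar in sequence, and how reads matching several of them were counted is not given in the sources used here, so their separate values are uncertain.

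The CREB3 family did not move as a block. Creb3l2 averaged 66.2 ± 10.3 CPM in KO and 33.5 ± 2.05 CPM in WT (SD, n = 3 each), 1.98-fold higher in KO (adjusted p = 2e-05). Creb3l3, better known from liver, had 136 counts in KO and 0 in WT, at least 39.3-fold higher in KO (adjusted p = 0.00016). Creb3 stood at 47.1 ± 0.262 CPM in KO and 41.4 ± 4.4 CPM in WT (SD, n = 3 each; adjusted p = 0.12). Creb3l1 and Creb3l4 thus fell while Creb3l2 and Creb3l3 rose.

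Among the other relatives, the Ets factors Elf3 and Ehf fell 3.11-fold and 1.85-fold in KO, Spink1 at least 61.6-fold and Atoh8 13.0-fold. Fcgbp has a neighbour 8.60 kb away on the same strand, 9530053A07Rik, for which RefSeq lists FCGBP as a synonym. This neighbour was chosen for its position and was not counted among the 13 tested relatives. It averaged 26.6 ± 2.83 CPM in KO and 10.6 ± 1.23 CPM in WT (SD, n = 3 each) and rose by a log2 fold change of 1.34 ± 0.21 (SE, adjusted p = 5.3e-06). Fcgbp and its neighbour thus moved in opposite directions, and whether reads were shared between them was not tested. Over all 20 nearest tested neighbours of the 10 genes, 8 fell, 4 rose and 8 did not pass. Of all genes tested, 27.0% fell and 30.4% rose. Agr3 and Clca4b, among the 8 falls, are relatives already counted above.

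Most regulators of secretory fate beside Atoh1 and Spdef were lower in KO. Of 14 tested, 10 fell, 2 rose and 2 did not pass, with a median log2 fold change of -0.80, and of the 11 that reached the filter's level in all libraries 7 fell. Elf3 averaged 111 ± 16.7 CPM in KO and 346 ± 24.3 CPM in WT, and Foxa3, a forkhead factor, 9.11 ± 1.01 CPM in KO and 33.4 ± 2.73 CPM in WT (SD, n = 3 each). Klf4, a zinc-finger factor needed by goblet cells of the mouse colon, went the other way with 185 ± 4.64 CPM in KO and 59.8 ± 2.96 CPM in WT, 3.09-fold higher in KO (adjusted p = 3.7e-09). Neurog3, the endocrine fate factor, had 0 counts in KO and was at least 117-fold lower in KO (adjusted p = 1.5e-05). Gfi1, a factor downstream of Atoh1 in mouse secretory cells, stood at 0.0928 ± 0.0592 CPM in KO and 0.729 ± 0.17 CPM in WT (8.0-fold lower in KO, adjusted p = 0.0011).

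Genes of the Notch pathway, which restrains Atoh1, moved both ways. Of 21 tested, 8 rose, 6 fell and 7 did not pass, with a median log2 fold change of 0.09. With each library left out in turn, the number that rose ran from 5 to 10. It was 5 when KO replicate 1, KO replicate 3 or WT replicate 3 was left out. Hes1, the repressor of Atoh1, averaged 58.5 ± 2.26 CPM in KO and 39.8 ± 3.10 CPM in WT (SD, n = 3 each), 1.47-fold higher in KO (adjusted p = 0.00025). The receptor Notch3 rose 5.72-fold, the ligand Jag1 5.73-fold and the feedback gene Nrarp 2.69-fold. The ligands Dll4 and Dll1, which secretory progenitors present to their neighbours, fell 20.6-fold and 1.67-fold.

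Mucins and trefoil peptides moved both ways. Of 11 tested, 4 rose, 5 fell and 2 did not pass, and the list's median was 0.42. Of the 5 falls, 4 were genes that reached the filter's level through WT alone. Of the 4 rises, 3 were genes that reached it through KO alone. Among the 3 genes that reached it in all libraries, 1 fell and 1 rose. Muc13, a membrane mucin of the intestine, had 0 counts in KO and 301 ± 11.0 CPM in WT (SD, n = 3), at least 8996-fold lower in KO (adjusted p = 1e-11). Tff3, the trefoil peptide of intestinal goblet cells, stood at 58.9 ± 16.6 CPM in KO and 428 ± 37.6 CPM in WT, 7.29-fold lower in KO (adjusted p = 2.6e-08). Tff1 and Tff2, the trefoil peptides of the stomach, rose 634-fold and 28.8-fold in KO, and the mucins Muc20 and Muc16 rose 28.9-fold and at least 20.2-fold. The WT values of Tff1 and Muc20 rest on 11 and 12 counts over 3 libraries, so the sizes of these rises are imprecise. Their log2 fold changes were 9.31 ± 1.05 and 4.85 ± 1.14 (SE, n = 3 each). The list's median was -0.18 without WT replicate 1 and 0.11 to 0.58 without each of the other libraries in turn, and it was -1.90 with a filter of at least 1 CPM in 3 libraries, so its sign depends on both choices.

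Of 23 other goblet cell products tested, 15 fell, 5 rose and 3 did not pass, with a median log2 fold change of -2.60. Of the 15 falls, 11 were genes that reached the filter's level through WT alone, and among the 11 genes that reached it in all libraries 4 fell and 4 rose. Nlrp6, an inflammasome sensor, fell at least 3444-fold, Itln1, an intelectin, at least 2007-fold, and the transporter Slc12a8 433-fold in KO. Lypd8, a secreted protein that keeps flagellated bacteria off the epithelium, had 5 counts in KO and 5146 in WT (adjusted p = 1e-13). Ang4 and Itln1 of this list are also Paneth cell markers.

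Genes of the machinery that folds and glycosylates mucus proteins moved both ways, while transport genes that passed the test mostly rose. Over all genes tested, 30.4% passed as higher and 27.0% as lower in KO. Of 39 ER folding and translocation genes, 10 rose, 7 fell and 22 did not pass, with a median log2 fold change of 0.09. Without KO replicate 2, 10 rose and 12 fell. Pdia5 and Fkbp11 fell 3.04-fold and 2.71-fold in KO, while the disulphide isomerases Pdia4 and Pdia3 rose 1.43-fold and 1.4-fold. Of 35 ER-to-Golgi transport genes, 16 rose, 3 fell and 16 did not pass, with a median of 0.13. Kdelr3, a retrieval receptor, rose 4.59-fold and Sec24d, a COPII coat subunit, 2.65-fold, whereas Sec16b fell 2.75-fold. Of 23 mucin glycosylation genes, 8 rose, 7 fell and 8 did not pass. B4galnt2 had 0 counts in KO and fell at least 4124-fold, and St3gal4 rose 4.82-fold. None of these 3 lists had a median beyond 0.13, against -5.53 for the 9 tested goblet genes. Of those 9, 3 reached the filter's level through WT alone and could only pass as falls. By contrast, 38 of 39 folding, 35 of 35 transport and 19 of 23 glycosylation genes reached it in all libraries. The medians are therefore not compared on equal terms.

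**Figure D4:**
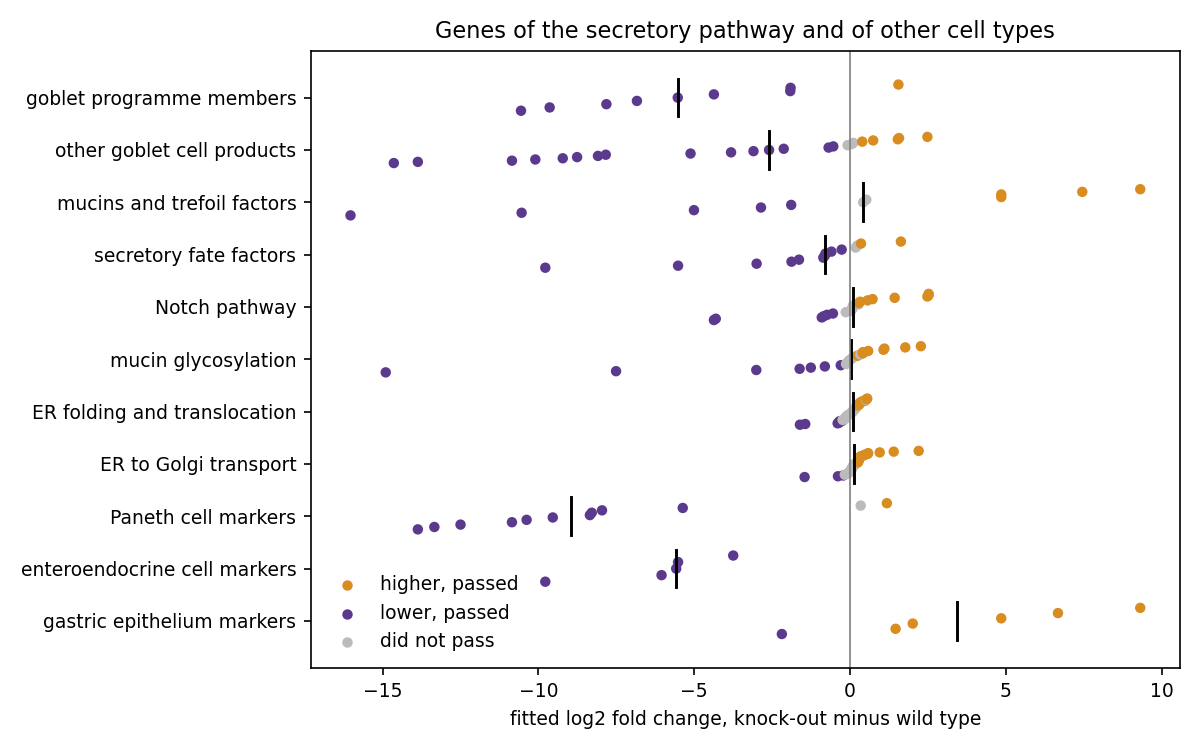
Fitted log2 fold change (KO minus WT) of every tested gene of 11 lists, with black bars at the medians, orange for genes that rose, purple for genes that fell and grey for genes that did not pass. The goblet genes have a median of -5.53 and 1 orange point, Bcas1, while the medians of the folding, transport and glycosylation lists lie at 0.03 to 0.13. Of the 9 goblet genes drawn, 3 reached the filter's level through WT alone. For genes with 0 counts in a genotype the fitted value is not a bound.

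Markers of Paneth and enteroendocrine cells were low in KO, while those of tuft cells moved both ways. Of 12 tested Paneth cell markers, 10 fell, 1 rose and 1 did not pass, but 9 of the 10 reached the filter's level through WT alone and so could only pass as falls. Mmp7, the remaining one, was 41.4-fold lower in KO (adjusted p = 4.3e-09). Over all 15 Paneth markers the summed level was 18.0 to 29.7 CPM in KO and 593 to 769 CPM in WT. In KO 11 of 15 Paneth markers had no count, among them all 6 defensins listed, of which Defa5 was at 0 in WT too, and Lyz1 had 1 count over the KO libraries. The 5 tested enteroendocrine markers fell, and all 5 reached the filter's level through WT alone. The enteroendocrine list summed to 0 to 0.840 CPM in KO and 21.3 to 39.7 CPM in WT, with 10 of 14 at 0 in KO and 4 of these also at 0 in WT. Of 6 tested tuft cell markers, 3 rose, 2 fell and 1 did not pass, with a summed level of 80.8 to 116 CPM in KO and 11.9 to 13.5 CPM in WT. Avil made up 92.7 ± 16.8 CPM of it in KO and 4.67 ± 0.458 CPM in WT (SD, n = 3 each). Ltc4s rose 4.12-fold (adjusted p = 7.3e-05) and Alox5 4.29-fold (adjusted p = 0.031), whereas Trpm5 fell 17.9-fold (adjusted p = 2.8e-05) and Pou2f3 1.71-fold (adjusted p = 0.037). Trpm5 reached the filter's level through WT alone and Alox5 through KO alone. Among the 3 tuft markers that reached it in all libraries, 2 rose and 1 fell. Of 12 tuft markers, 5 were at 0 in KO, and none of these had more than 17 counts in WT. The part of these cell types in the values of the goblet genes was not tested.

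Markers of absorptive and stem cells and of other epithelia also differed between the genotypes. Of 11 tested enterocyte markers, 6 fell (4 of them through WT alone at the filter) and 4 rose. Their summed level was 594 to 1076 CPM in KO and 634 to 719 CPM in WT. Apob, which rose, made up 633 ± 277 CPM of it in KO and 116 ± 54.4 CPM in WT (SD, n = 3 each). The similar sums therefore do not mean that the other enterocyte markers kept their level. Sis, with 76 counts in WT, and Apoa1, with 18, were at 0 in KO. Fabp1 and Apoa4 were at 0 in both genotypes. Of 11 tested crypt stem cell markers, 10 fell and none rose (3 of the falls through WT alone at the filter), with a summed level of 822 to 953 CPM in KO and 2886 to 3042 CPM in WT, and Olfm4 was at 0 in KO. Of 6 tested gastric markers, 5 rose (1 of them through KO alone at the filter) and 1 fell (through WT alone). Tff1 and Tff2, which rose, are also on the list of mucins and trefoil peptides above. The gastric list's summed level was 648 to 744 CPM in KO and 29.4 to 40.6 CPM in WT. Muc6, Gkn2, Gif, Atp4b and Sox2 were at 0 in both genotypes and Pgc had 0 counts in KO and 14 in WT. Of 12 tested squamous markers, 11 rose and none fell (4 of the rises through KO alone at the filter), with a summed level of 3362 to 4208 CPM in KO and 307 to 354 CPM in WT. Cdx2, a regulator of intestinal identity, stood at 20.6 ± 1.3 CPM in KO and 193 ± 10.6 CPM in WT (SD, n = 3 each; 9.39-fold lower in KO, adjusted p = 4.2e-11). Their part in the falls of the goblet genes was not tested.

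Markers of cells outside the epithelium were low beside the epithelial ones, and their part in the goblet genes' values was not tested. The fibroblast list summed to at most 0.884 CPM in KO and 0.339 CPM in WT, with Col3a1, Pdgfrb, Dcn, Lum and Thy1 at 0 in both. The immune list summed to 23.1 to 23.7 CPM in KO and 3.72 to 6.98 CPM in WT, with Cd3e, Cd4, Cd8a and Adgre1 among those at 0 in both, and the endothelial list to 0.678 to 1.23 CPM in KO and 17.6 to 23.3 CPM in WT, with Kdr and Emcn at 0 in both.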

How the data were processed

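Polyadenylated RNA of 6 tumoroid libraries was sequenced with a stranded kit, per the labels' protocols, and reads were aligned with STAR to GRCm38, per the submitters' processing notes. What counted the reads, with which strand setting, and how reads matching several genes were treated is not stated in the labels or headers. The authors deposited raw counts for each Ensembl gene, with 20749747 to 31875723 counts per library. GENCODE M21 named 49326 of 49585 identifiers.

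Libraries were grouped by the labelled genotype. Counts were tested with edgeR 4.0.16 (R 4.3.3) by the quasi-likelihood test on genotype alone, with TMM scaling, filterByExpr (minimum count 10, minimum total 15) and Benjamini-Hochberg adjustment over 13759 genes at 0.05. The pipeline was tested on simulated data with far fewer and smaller changes than seen here. That test therefore does not cover the largest falls of the goblet genes. CPM values are mean ± SD over 3 libraries. Standard errors came from the fit's weights and dispersion. Where a genotype had no count, the bound used 3 counts over its pooled libraries (0.0336 CPM in KO, 0.0388 CPM in WT). With 1 to 3 counts, a ratio with an exact 95% interval was given. At these depths 1 CPM corresponds to 20.6 to 31.7 counts per library.

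Levels per kilobase used the merged exon length of GENCODE. The 10 genes and the lists, including markers of other cell types, were chosen with earlier results of these data known. Named were the 10 genes, Chuk, up to 4 tested genes per list with the smallest adjusted p, and relatives of at least 1 CPM. Others were chosen by position or after their values were seen. Replicate numbers did not pair the libraries. Alternatives were other scalings, filters and tools (DESeq2 1.42.0, limma 3.58.1), each library left out, a replicate block, and 1 edgeR variant chosen after seeing the data. Some single marker genes of the lists are not reported here.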

Additional observations from a re-analysis of the deposited data

How the results depend on the processing

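Over 16 alternatives, all 144 fold changes of the 9 tested goblet genes kept their direction and stayed past the threshold. In each alternative 8 fell and 1 rose. Atoh1, Spdef and Spink4 reached the main filter's level through WT alone, so their kept direction adds no support. The median log2 fold change of the 9 genes ran from -5.82 to -5.19, the same range as when each library was left out in turn. It is also the range of Agr2 alone, the middle gene, and so does not measure the steadiness of the set. Bcas1 ran from 1.31 to 1.71 (highest adjusted p 0.00051) and Creb3l1 from -2.19 to -1.75 (highest 0.003). The number of genes past the threshold ran from 7019 to 8899, and from 7077 to 8899 with a library left out, against 7896. The replicate numbers showed no pairing, with correlations of same-numbered deviations of 0.108, -0.11 and -0.19. With a replicate block, 7432 genes passed, again with 8 goblet genes lower and 1 higher. The block gave a median of -5.54. Of 912 results on the lists, 849 stayed within the limit set for them, 61 were labelled as moved and 2 as reversed. The limit was a spread between libraries for medians and a ratio for counts of genes. Not every change of sign was labelled as reversed. The mucin and trefoil median ran from -1.90 to 0.58, that of ER folding from -0.02 to 0.11 and that of glycosylation from -0.04 to 0.06. With no filter, the tuft list's median was -1.68, where 12 genes entered in place of 6. Without chromosomes X, Y and 5 and mitochondrial genes, the epithelial list's median was 0.12, with 6 genes in place of 8. Depth limits Zg16, with 1 count in all, and the KO levels of Atoh1, Spdef and Spink4.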
